A study of Mus musculus with 3 samples.

Results

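The genes Pdx1, Nkx6-1, Nkx2-2, Isl1, Pax6 and Mnx1 encode homeodomain transcription factors of pancreatic beta cells, and the chromatin around these 6 genes is described here. Every ATAC-seq peak that overlapped 1 of the gene bodies or the 50 kb on either side was taken, whatever its strength. This gave 54 of the 60898 peaks of the wild type (WT) list, 43 of the 150354 peaks of the list made 1 week after Taf4 inactivation and 69 of the 151725 peaks of the list made 5 weeks after it. Merged over the lists, the peaks formed 74 regions.

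In ATAC-seq a transposase cuts chromatin and leaves sequencing adapters wherever it can reach the DNA, so that peaks of reads mark open chromatin. Cells from isolated Langerhans islets of mice (strain label C5LBl6) gave 3 libraries: 1 with the genotype wild type and no time label, 1 Taf4 KO at 1 week and 1 Taf4 KO at 5 weeks. Taf4 is a subunit of TFIID, the general factor that binds core promoters. The study deleted Taf4 in adult mice with a tamoxifen-inducible Cre recombinase driven by the insulin gene Ins1 and aimed at beta cells, and its control animals carried that Cre and received tamoxifen as well, whereas the label of the WT library says only wild type. How many animals gave each library was not given in the sources used here. Each group was a single library, so there was no replicate, no test between conditions was possible, and each difference below is a difference between 3 libraries.

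A homeodomain is a DNA-binding fold that reads short AT-rich sites with a TAAT core. In the embryo Pdx1 and Mnx1 act early in the pancreatic bud, Nkx2-2, Nkx6-1 and Pax6 act as endocrine cells take on their types, and Isl1 acts as endocrine cells mature. In the adult, Pdx1 and Nkx6-1 are most active in beta cells, where Pdx1 binds the insulin genes and Nkx6-1 holds alpha cell genes off, while Isl1, Pax6 and Nkx2-2 are also used by other endocrine cells. Since whole islet cells were profiled, fewer beta cells and less open chromatin per beta cell cannot be told apart.

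The sequences below are the central 300 bases of 8 peaks on which the account turns, read from the mm9 genome on the plus strand, 5′ to 3′. They come from the strongest distal peak of each gene in the WT list, from the WT peak at the upstream Nkx2-2 start, and from the stronger Nkx2-2 promoter peak, which was called only at 5 weeks. In the list below the 3 Nkx2-2 sequences stand in that order. Capitals mark every TAAT or ATTA, the homeodomain core read on either strand, and the run ATTAAT holds both.
Pdx1, chr5:148079228-148079527: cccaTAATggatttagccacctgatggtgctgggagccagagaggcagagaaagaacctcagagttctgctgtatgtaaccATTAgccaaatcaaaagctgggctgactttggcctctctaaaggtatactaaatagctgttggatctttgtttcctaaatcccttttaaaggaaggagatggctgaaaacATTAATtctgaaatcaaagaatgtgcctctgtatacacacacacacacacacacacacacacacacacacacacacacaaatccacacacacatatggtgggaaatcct
Nkx6-1, chr5:102085019-102085318: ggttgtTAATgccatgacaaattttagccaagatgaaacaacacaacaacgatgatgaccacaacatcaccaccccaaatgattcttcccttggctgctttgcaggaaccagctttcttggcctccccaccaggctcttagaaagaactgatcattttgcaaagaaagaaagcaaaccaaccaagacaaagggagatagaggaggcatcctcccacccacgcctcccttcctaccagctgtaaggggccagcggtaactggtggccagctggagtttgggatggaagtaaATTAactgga
Nkx2-2, chr2:147056767-147057066: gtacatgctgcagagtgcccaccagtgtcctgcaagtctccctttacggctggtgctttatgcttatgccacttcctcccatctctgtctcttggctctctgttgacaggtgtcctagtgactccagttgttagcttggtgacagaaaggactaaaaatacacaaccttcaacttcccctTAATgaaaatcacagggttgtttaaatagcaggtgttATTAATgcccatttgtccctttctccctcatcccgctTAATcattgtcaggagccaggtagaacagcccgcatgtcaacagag
Nkx2-2, chr2:147020138-147020437: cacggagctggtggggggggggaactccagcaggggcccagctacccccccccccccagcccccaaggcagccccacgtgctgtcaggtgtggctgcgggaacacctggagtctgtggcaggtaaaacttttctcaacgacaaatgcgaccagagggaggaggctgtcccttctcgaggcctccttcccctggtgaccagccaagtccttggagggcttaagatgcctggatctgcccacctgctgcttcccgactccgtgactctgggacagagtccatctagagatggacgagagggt
Nkx2-2, chr2:147013007-147013306: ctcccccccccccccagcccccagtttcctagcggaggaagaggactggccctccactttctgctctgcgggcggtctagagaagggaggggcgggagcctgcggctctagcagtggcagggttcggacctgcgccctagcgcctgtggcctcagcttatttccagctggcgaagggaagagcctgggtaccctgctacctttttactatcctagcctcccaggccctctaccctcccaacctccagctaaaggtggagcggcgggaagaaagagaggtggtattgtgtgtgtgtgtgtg
Isl1, chr13:117083991-117084290: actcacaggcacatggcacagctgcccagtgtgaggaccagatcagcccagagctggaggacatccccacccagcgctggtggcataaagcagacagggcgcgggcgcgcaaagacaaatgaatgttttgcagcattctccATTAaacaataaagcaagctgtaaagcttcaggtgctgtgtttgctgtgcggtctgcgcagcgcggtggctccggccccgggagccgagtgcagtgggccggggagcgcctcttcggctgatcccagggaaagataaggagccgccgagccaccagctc
Pax6, chr2:105578961-105579260: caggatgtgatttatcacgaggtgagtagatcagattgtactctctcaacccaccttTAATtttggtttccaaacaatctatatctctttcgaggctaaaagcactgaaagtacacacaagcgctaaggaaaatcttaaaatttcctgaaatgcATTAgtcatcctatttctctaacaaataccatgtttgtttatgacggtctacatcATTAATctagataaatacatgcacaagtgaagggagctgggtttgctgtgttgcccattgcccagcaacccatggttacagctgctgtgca
Mnx1, chr5:29823687-29823986: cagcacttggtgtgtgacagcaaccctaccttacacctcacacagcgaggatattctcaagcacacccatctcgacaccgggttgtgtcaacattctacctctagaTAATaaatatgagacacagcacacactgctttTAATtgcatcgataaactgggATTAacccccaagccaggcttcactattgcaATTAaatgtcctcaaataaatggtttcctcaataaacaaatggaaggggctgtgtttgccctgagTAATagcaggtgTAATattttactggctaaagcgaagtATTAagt

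TAAT was searched on both strands after the other motifs had been seen to be missing. It was in 6 of the 8 sequences, with 7 sites in the Mnx1 peak and 4 each in the Pdx1 peak, the distal Nkx2-2 peak and the Pax6 peak. Of the central 300 bases of 35859 WT distal peaks, 69.4% held it, with a median of 1 site and a 95th percentile of 6, so the Mnx1 peak lay above that percentile. The pair of Nkx2-2 sequences near its starts held none, at a GC content of 63.3% and 62.7% against a median of 50% over the same windows. Those windows are of WT distal peaks, whereas the sequence with 62.7% is from a promoter peak called only at 5 weeks. The Isl1 peak held 17 CpG dinucleotides against a median of 4. The 6 other motifs searched on both strands were in none of the 8 sequences. Among the background windows the longer homeodomain core TAATTA was in 7.66%, the Nkx2 motif TAAGTG was in 12.3%, the forkhead motif TGTTTAC was in 8.26%, the E-box CAGATG was in 30%, the Maf motif TGCTGAC was in 7.90% and the TATA box TATAAA was in 10.2%.

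The 3 lists differed in length and depth, and this touches every count that follows. The local background behind a peak, worked out from its fold and its p and taken at the 1st percentile of a list, was 3.66 reads in WT, 6.45 reads at 1 week and 9.38 reads at 5 weeks. Fold and -log10 q were called against each library's own background. Peaks were therefore compared between lists by their percentile of -log10 q within their own list, where 100 is the strongest. Promoter windows of the 6 beta cell marker genes all held a peak in each of the 3 lists. Of the alpha cell markers 3 of 4 were called in WT and 4 in either KO list, of the delta cell markers 0, 1 and 2 of 2 in the lists in the order WT, 1 week, 5 weeks, and the PP cell marker and the 4 acinar markers in none. Duct markers were called at 0, 1 and 0 of 2, endothelial markers at 1, 1 and 2 of 3, stellate markers at 0, 0 and 2 of 3 and immune markers at 0, 1 and 0 of 3. The part of depth and of other cell types in the differences below was not tested.

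The 6 loci together held fewer peaks at 1 week than in WT (43 against 54) and more at 5 weeks (69), while the whole lists held 2.47 and 2.49 times as many peaks as the WT list. The loci thus held 0.80 times the WT number at 1 week and 1.28 times at 5 weeks. At 1 week Pdx1 (5 against 10), Nkx2-2 (4 against 7), Mnx1 (5 against 7) and Pax6 (14 against 16) had fewer peaks, Nkx6-1 had the same number (7) and Isl1 had more (8 against 7). Fewer peaks were also found at 75.8% of the 12531 protein-coding gene loci with at least 5 WT peaks, and more at 16.6%, so 4 of 6 loci with fewer peaks is a share near that of genes at large. At 5 weeks Pdx1 (15), Nkx2-2 (14), Nkx6-1 (10) and Isl1 (9) had more peaks than in WT, and Pax6 (15) and Mnx1 (6) had 1 fewer each. Among all such gene loci 56.1% had more peaks at 5 weeks and 25.6% had fewer. The higher count at 5 weeks did not hold under every setting. It was 50 when the lists were cut to equal number and 44 when peaks were scaled to the WT background. Both were under the 54 of WT, and the scaled count was 8 at Pdx1 and 6 at Nkx2-2. The 5 week count stayed above that of WT when -log10 q had to reach 3 (50 against 38) or 5 (36 against 28). It also did with flanks of 25 kb (53 against 40) or 100 kb (100 against 80).

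**Figure D1:**
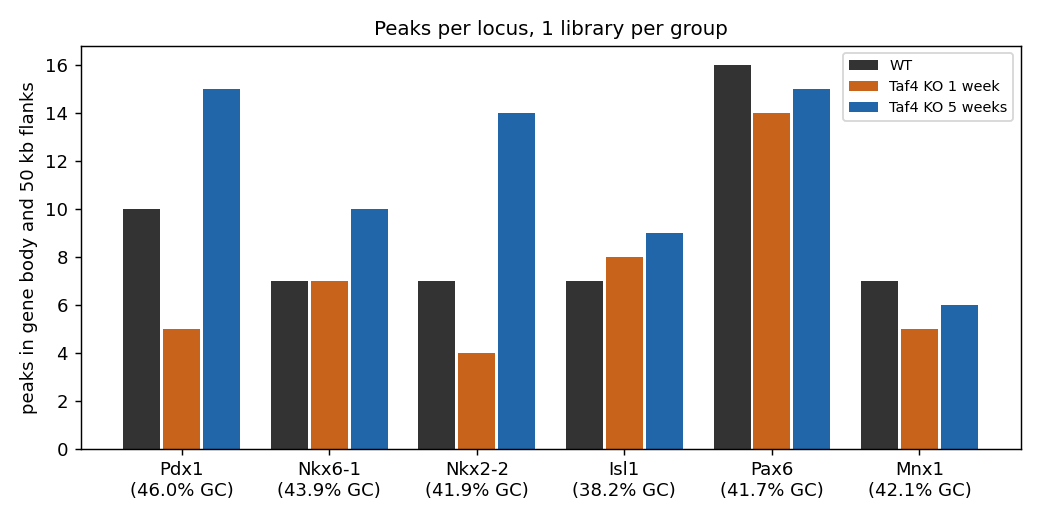
Number of peaks overlapping each gene body and its 50 kb flanks (vertical axis) in the WT library and the libraries made 1 and 5 weeks after Taf4 inactivation, 1 library each; the percentage under each name is the GC content of the surrounding 1 Mb. Pdx1 had 10, 5 and 15 peaks and Nkx2-2 had 7, 4 and 14, whereas Isl1, in the most AT-rich surroundings, had 7, 8 and 9.

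Over all gene loci with at least 5 WT peaks, the median ratio of 1 week to WT peaks was lower where the surrounding 1 Mb had a higher GC content. In 5 bins of rising GC content, with equal numbers of WT peaks, it was 1.29, 0.917, 0.786, 0.625 and 0.50. Isl1 lay in bin 1, with 38.2% GC, and was the only locus with more peaks at 1 week. Pdx1 lay in bin 4, with 46.0% GC, the highest of the 6, and had 5 peaks against 10. Nkx6-1 (43.9%, bin 3), Mnx1 (42.1%, bin 2), Nkx2-2 (41.9%, bin 2) and Pax6 (41.7%, bin 1) lay between them, and Pax6 had fewer peaks than in WT although the median ratio of its bin was above 1. At 5 weeks the median ratio was 1.29 in bin 1 and 1.08 in bin 5. The cause of the pattern at 1 week was not tested.

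**Figure D2:**
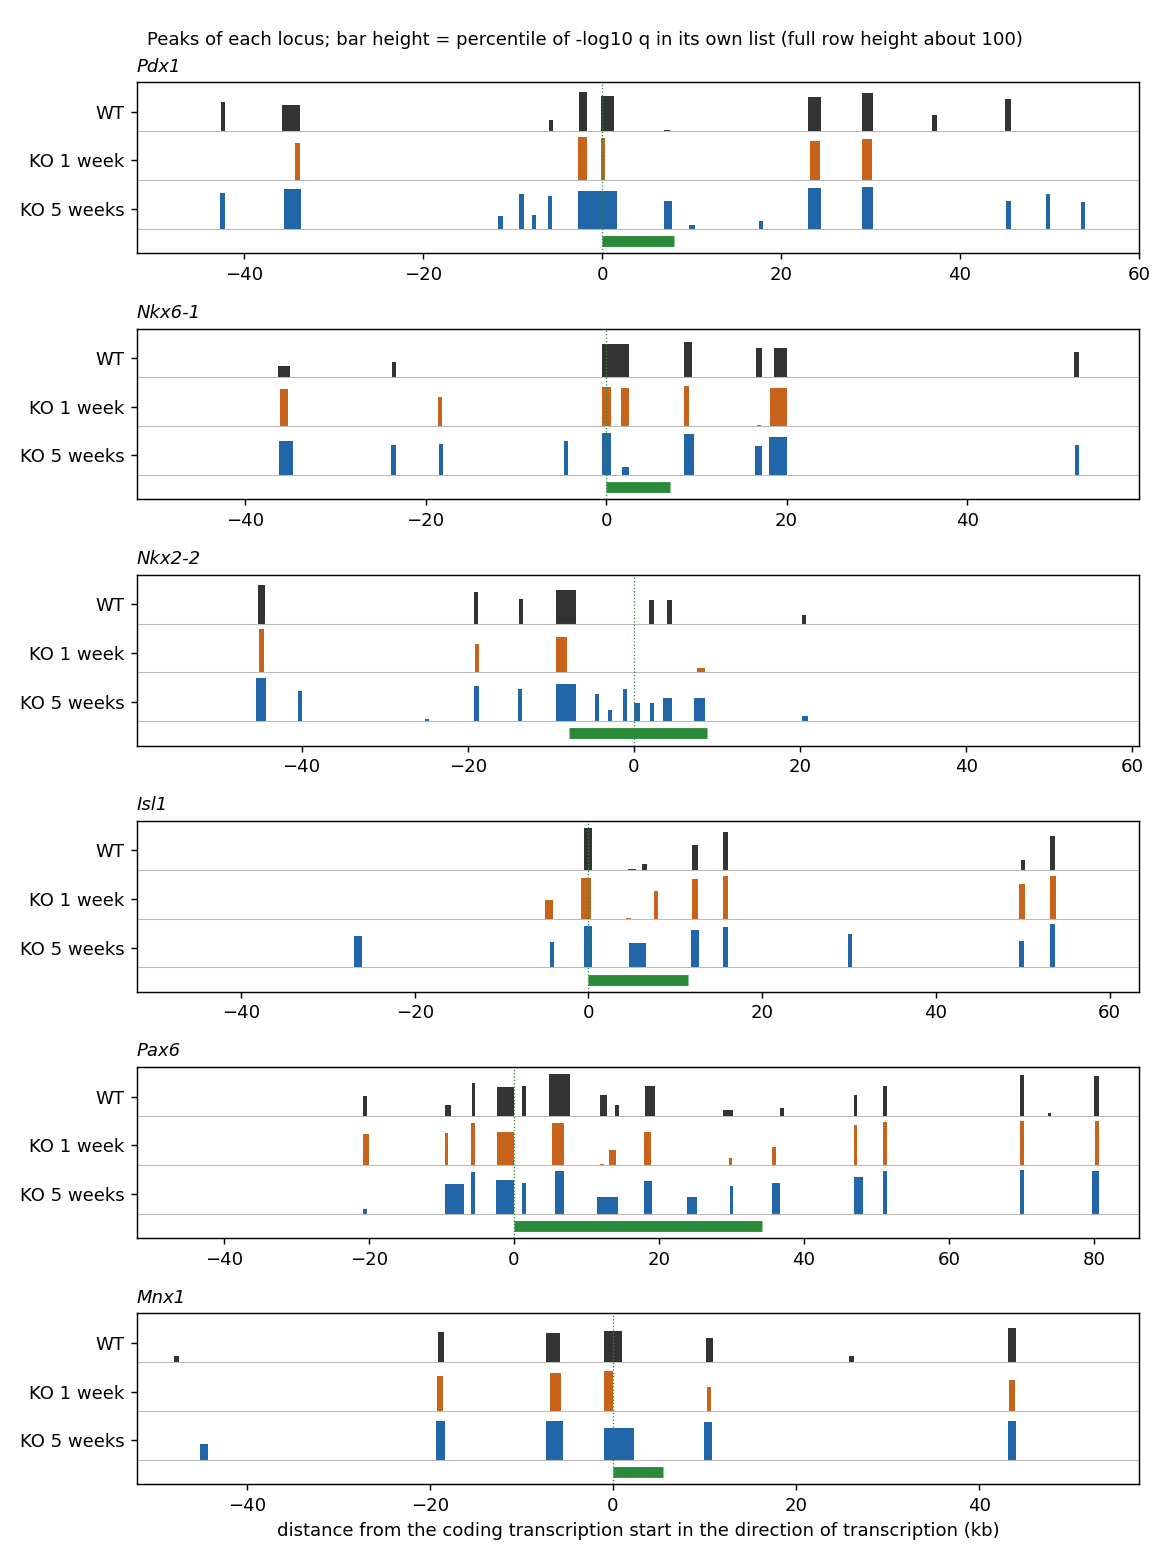
Peaks of each locus drawn to scale by distance from the gene start in kb, oriented in the direction of transcription, with 1 row per library, bar height giving the percentile of -log10 q within its own list and the green bar the gene body. The strongest regions recur in all 3 rows, and the additional peaks of Pdx1 and Nkx2-2 at 5 weeks lie between and beside them.

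Of the 74 merged regions, 35 held a peak in all 3 lists, 18 only at 5 weeks, 11 in WT and at 5 weeks, 5 only in WT, 4 in both KO lists and 1 only at 1 week, and none was shared by WT and 1 week alone. Of the 233507 merged regions of the whole lists, 15.7% held a peak in all 3, 26.2% only at 5 weeks, 4.88% in WT and at 5 weeks, 4.91% only in WT, 17.9% in both KO lists, 30% only at 1 week and 0.397% in WT and at 1 week. The 18 of 74 only at 5 weeks and the 5 of 74 only in WT were thus shares near those of the whole lists. Of the regions only at 5 weeks 7 lay at Pdx1 and 6 at Nkx2-2, with 2 at Isl1 and 1 each at Nkx6-1, Pax6 and Mnx1. The regions of WT and 5 weeks were 4 at Pdx1, 4 at Nkx2-2, 2 at Nkx6-1 and 1 at Pax6. Promoter regions of the 6 genes made up 7 of the regions in all lists and 2 of those seen only at 5 weeks, both at Nkx2-2. Among distal regions in all lists, 13 lay between genes and 14 inside a gene. Among those seen only at 5 weeks 7 lay between genes and 9 inside. The same split was not worked out over the whole lists, so these counts only describe the loci.

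Promoters, taken as 1000 bp upstream to 100 bp downstream of any protein-coding start, held a peak at 5 of the 6 genes in WT, again 5 after 1 week and all 6 after 5 weeks. Pdx1, Nkx6-1, Isl1, Pax6 and Mnx1 were called in every list, and Nkx2-2 only at 5 weeks. The share of all protein-coding genes called in this way was 59.0% in WT, 55.9% after 1 week and 65.6% after 5 weeks. Of the genes called in WT, 14.5% were not called at 1 week and 1.89% not at 5 weeks, against 0 of 5 here at either time. Of the genes not called in WT, 13.3% were called at 1 week and 18.9% at 5 weeks, a group in which Nkx2-2 was the only member. The strongest peak of the 5 promoters called in all lists had a percentile of 72.3 to 95.4 in WT, 89.5 to 96.2 at 1 week and 73.2 to 98.1 at 5 weeks.

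**Figure D3:**
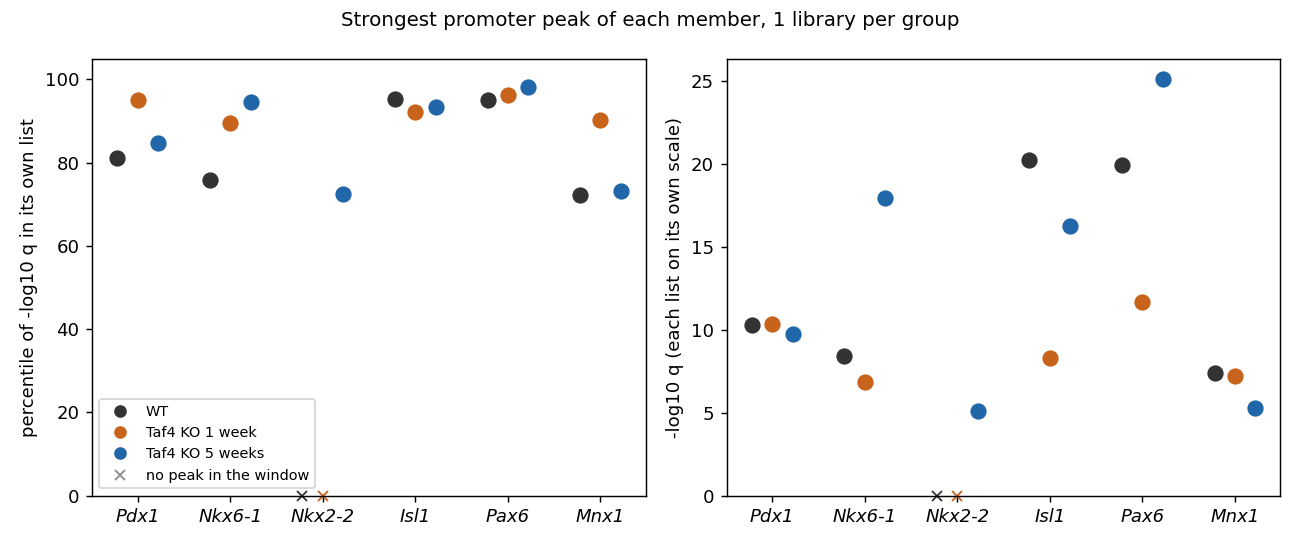
Percentile of -log10 q, within its own list, of the strongest promoter peak of each gene in the WT, 1 week and 5 week libraries. Nkx2-2 had a point only at 5 weeks, Isl1 stood at 95.4, 92.2 and 93.3 and Nkx6-1 at 75.9, 89.5 and 94.6.

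Pdx1 (ENSMUSG00000029644.6, mm9 chr5:148081535-148089584, plus strand) encodes the factor without which no pancreas forms. Its WT promoter peak spanned 1374 bp at chr5:148081467-148082840, at 2.92 times the local background (its fold), and its -log10 q was 10.3. The 1 week peak was 327 bp long, from nearly the same upstream edge, with fold 3.81 and -log10 q 10.3. In the 5 week list a single peak of 4292 bp ran from 148078863 to 148083154 and covered the promoter together with the region upstream, at fold 2.68 and -log10 q 9.77. In percentiles the promoter stood at 81.1, 94.9 and 84.8.

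The Pdx1 region centred at -2.16 kb, whose sequence is shown above with 4 TAAT cores, was the strongest of the locus in WT. It was 935 bp long in WT (-log10 q 14.1, percentile 88.8) and 964 bp long at 1 week (13.7 and 97.5). Its edges were nearly the same in both. At 5 weeks it lay within the single long peak. Downstream, at 29.6 kb, the -log10 q of a peak was 13.4 in WT, 9.63 after 1 week and 17.9 after 5 weeks. At 23.7 kb the values were 9.41, 6.44 and 15.0. A further region at -34.8 kb had 4.99, 4.89 and 14.2. In percentiles the peak at 29.6 kb stood at 87.7, 94.2 and 94.5. The peak at 23.7 kb stood at 78.8, 88.5 and 92.1, and that at -34.8 kb at 60.4, 83.7 and 91.2. These regions and the promoter held a peak in all 3 lists.

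The rest of the Pdx1 locus was called mainly at 5 weeks. WT peaks at -42.4 kb (-log10 q 6.06), -5.70 kb (2.06), 7.24 kb (1.39) and 45.4 kb (7.88) were matched at 5 weeks, with -log10 q of 8.36, 5.61, 3.34 and 3.48, and had no peak at 1 week. The peak at 45.4 kb, over an exon of Prhoxnb, was the highest of all 17 WT locus peaks without a match at 1 week, with a percentile of 74.1. Of the 7 regions called only at 5 weeks the strongest lay at -9.01 kb, with a -log10 q of 7.50 and a percentile of 79.9, and the next at 49.9 kb, with 6.92 and 78.3. The strongest WT peak with no KO overlap was the promoter of Cdx2, the neighbouring homeodomain gene of the intestine, with a -log10 q of 2.62 and a percentile of 36.0. The regions from -34.8 kb to -2.16 kb lay in introns of the neighbouring gene 2210019I11Rik.

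Nkx6-1 (ENSMUSG00000035187.8, mm9 chr5:102087158-102094245, minus strand) encodes the repressor that keeps beta cells from turning on alpha cell genes. In WT 1 peak of 2974 bp (fold 2.94, -log10 q 8.42) covered the promoter and reached into the gene. In both KO lists the same stretch was split into 2 peaks. The 1 week promoter peak was 909 bp long (fold 3.49, -log10 q 6.86), and the peak inside the gene, at 2.11 kb, reached 5.68. The 5 week promoter peak was 1076 bp long (fold 3.86, -log10 q 17.9), whereas the peak inside the gene had 1.47 and a percentile of 18.6. The promoter percentile was 75.9, 89.5 and 94.6 in the 3 lists.

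The 3 strongest distal Nkx6-1 peaks of the WT list lay downstream of the gene. For the peak at 9.08 kb, shown above, -log10 q was 9.85 in WT, then 7.41 and 16.1 in the 1 and 5 week lists, and its length was 982, 369 and 1117 bp. The peak at 19.4 kb had 5.98, 5.97 and 10.7. The peak at 16.9 kb had 6.01, 1.21 and 3.69, or percentiles of 66.3, 2.90 and 65.3, and at 1 week no other shared peak of the 6 loci stood as far below its WT percentile. Upstream, at -18.4 kb, a region was called in both KO lists and not in WT (-log10 q 2.66 and 4.88). Upstream at -35.7 kb the -log10 q was 2.11, 4.86 and 6.72.

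Nkx2-2 (ENSMUSG00000027434.9, mm9 chr2:147003282-147019979, minus strand) encodes a factor without which beta cells do not form, and its promoter is the one whose call differed between lists. No peak lay in the windows of its protein-coding starts (147012138 and 147011997) in WT or at 1 week. At 5 weeks 1 peak lay over the starts (147011435-147012157) at -log10 q 2.0, and a second of 304 bp was centred at -1.02 kb (147013005-147013308), at fold 2.34, -log10 q 5.12 and a percentile of 72.5. The second is the sequence shown above, in which 34 bases belong to exon 1 of the antisense non-coding gene 6430503K07Rik. The starts of 2 non-coding Nkx2-2 transcripts, at -7.84 kb, lay in a WT peak of 2357 bp whose -log10 q was 8.63. The same region had 4.34 at 1 week, in a peak that stopped short of the starts themselves, and 10.1 at 5 weeks, with percentiles of 76.5, 81.2 and 85.4. With the windows of every annotated transcript start, a choice made after these values had been seen, all 6 genes were called in each list.

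The strongest Nkx2-2 peak of all lay at -44.8 kb, in an intron of Nkx2-2as. Its -log10 q was 13.1 in WT and 23.3 and 27.4 in the 1 and 5 week lists, and its percentile 87.1, 99.7 and 98.7. At 1 week it ranked 526 of 150354. The 1 week peak was 579 bp long with a fold of 6.42, against 847 bp with 4.56 in WT and 1221 bp with 4.88 at 5 weeks. Upstream at -19.0 kb the values were 7.16, 2.57 and 7.94, with percentiles of 71.4, 63.6 and 80.9. The WT peaks at -13.6 kb, 2.12 kb, 4.29 kb and 20.5 kb (-log10 q 4.27, 4.04, 4.08 and 1.83) each had a match at 5 weeks and none at 1 week. A region at 7.92 kb was called in both KO lists only, at a -log10 q of 1.33 and 2.49.

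Isl1 (ENSMUSG00000042258.5, mm9 chr13:117088478-117099896, minus strand) encodes a LIM homeodomain factor used by all islet endocrine cells. Its promoter peak kept nearly the same edges in WT (117099542-117100438) and at 5 weeks (117099535-117100468) and was longer at 1 week (117099566-117100720). The fold was 4.50 in WT and 3.27 and 3.49 in the KO lists, the -log10 q 20.3, 8.27 and 16.3, and the percentile 95.4, 92.2 and 93.3. It was the only one of the 5 promoters whose percentile was lower than in WT at both times.

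The 3 strongest distal Isl1 peaks of the WT list lay downstream of the gene start. At 15.8 kb, the sequence shown above, the -log10 q was 12.6, 14.1 and 14.9 in the 3 lists, at 53.5 kb 9.12, 13.5 and 25.6, and at 12.2 kb 4.40, 7.33 and 10.5. Within the gene, at 5.00 kb, a weak peak had 1.32 in WT and 1.07 at 1 week. In percentiles the peak at 53.5 kb stood at 78, 97.4 and 98.2. A region at -4.54 kb was called in both KO lists and not in WT (-log10 q 1.90 and 2.91). All 7 WT peaks of the locus had a match at 5 weeks and 6 had one at 1 week, the exception being a weak peak inside the gene at 6.44 kb (WT -log10 q 1.69).

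Pax6 (ENSMUSG00000027168.12, mm9 chr2:105509053-105543317, plus strand) encodes a paired-domain and homeodomain factor that binds the promoters of insulin and glucagon. It has 29 annotated transcript starts, 21 of them protein-coding. Of all 29 starts, 14 lay under a WT peak, 15 under a 1 week peak and 16 under a 5 week peak, in 3 stretches. The peak at the first starts (105506699-105509126 in WT) had a -log10 q of 6.05, 3.46 and 6.22 and a percentile of 66.5, 75.5 and 76.3. The second stretch, 6.27 kb into the gene, held the strongest promoter peak of the 6 genes at 5 weeks, where -log10 q reached 25.1, against 19.9 in WT and 11.7 at 1 week. Its length was 2955, 1647 and 1268 bp and its percentile 95.1, 96.2 and 98.1. A last stretch, at 12.4 kb, was weaker, with a -log10 q of 3.42 in WT, 1.14 and 1.71 in a pair of peaks at 1 week and 1.93 at 5 weeks.

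The downstream side of Pax6 held its strongest distal peaks, in introns of the neighbour Elp4, a subunit of the Elongator complex. At 70.1 kb the -log10 q was 18.4 in WT and 19.2 and 27.7 in the KO lists, and the percentile 93.9, 99.2 and 98.7. At 80.4 kb it was 16.6, 23.4 and 20.2, with 92.0, 99.7 and 96.1. At 51.2 kb it was 6.28, 13.7 and 22.4, and upstream, at -5.57 kb in an intron of Pax6os1, 8.12, 11.7 and 18.1. A region at 36.1 kb was called only in the KO lists, at 1.85 and 4.35. The WT peaks at 37.0 kb (1.79) and 73.9 kb (1.51) had no match in either KO list.

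Mnx1 (ENSMUSG00000001566.8, mm9 chr5:29799578-29805059, minus strand) encodes a factor of the early dorsal pancreatic bud that is later kept in beta cells. Its promoter peak was 2021 bp long in WT (29804061-29806081), 1057 bp at 1 week (29805021-29806077) and 3308 bp at 5 weeks (29802780-29806087), with a fold of 2.87, 3.66 and 2.36. The -log10 q was 7.40, 7.19 and 5.31 and the percentile 72.3, 90.2 and 73.2. Of the 5 promoters, only those of Mnx1 and Pdx1 had their lowest -log10 q at 5 weeks. The Pdx1 peak there had merged with its neighbour. By percentile, the measure used between lists, both stood lowest in WT, Pdx1 with 81.1, 94.9 and 84.8.

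Upstream of Mnx1, at -18.8 kb, a peak had a -log10 q of 6.49, 4.11 and 12.4, and at -6.53 kb another had 6.11, 5.61 and 11.6. Downstream, at 10.5 kb, the values were 4.43, 2.23 and 11.2. The sequence at -18.8 kb, shown above, held the most TAAT cores of the 8. The promoter of the neighbour Nom1 was called in all 3 lists, with 8.87, 2.92 and 12.1. The WT peaks at 26.0 kb (1.67) and -47.7 kb (1.68) had no match in either KO list. No region was called in both KO lists without WT.

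A WT peak was counted as shared when a KO peak overlapped it by at least 1 bp. Of the 54 WT peaks, 37 were shared at 1 week (68.5%, Wilson 95% interval 55.3 to 79.3, which covers the counting of peaks only) and 49 at 5 weeks (90.7%, 80.1 to 96.0). Of all WT peaks 61.9% were shared at 1 week and 79.5% at 5 weeks, and with the same mix of promoter and distal peaks and of GC bins the shares were 68.4% and 79.8%. The share at 1 week was thus close to that of WT peaks of like class and surroundings. The order at 5 weeks turned with a minimum -log10 q. When it had to reach 3 the shares were 89.5% of the locus peaks and 92.1% of all WT peaks. When it had to reach 5 they were 89.3% and 93.3%. The locus share stayed the higher one after scaling to the WT background (66.7% and 65.4%). It also did with lists of equal number (74.1% and 69.6%) and with a reciprocal overlap of 50% (66.7% and 61.2%). The intervals take peaks as independent, although they come from 6 loci. For the 45 distal peaks, 29 were shared at 1 week (64.4%, 49.8 to 76.8, against 55.5% of all WT distal peaks) and 41 at 5 weeks (91.1%, 79.3 to 96.5, against 74.6%). Of the 9 promoter peaks, including those of Nom1 and Cdx2, 8 were shared at either time (88.9%), against 85.5% and 97.5% of all WT promoter peaks.

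WT peaks were also taken in 4 bins of WT percentile of equal width. In the strongest bin all 15 locus peaks were shared at both times, against 93.4% and 99.4% of all WT peaks of that bin. In the weakest bin 3 of 11 were shared at 1 week and 7 of 11 at 5 weeks, against 25.8% and 45.7%. Between them the numbers at 1 week did not follow strength, with 6 of 8 in the second bin from the weakest, against 51.4%, and 13 of 20 in the next, against 76.9%. At 5 weeks these bins had 7 of 8 and 20 of 20, against 77.6% and 95.3%. The 5 peaks without a match at 5 weeks, the Cdx2 promoter and the 4 weak peaks named above at Pax6 and Mnx1, had none at 1 week either. The 12 others that lacked a match at 1 week all had one at 5 weeks.

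**Figure D4:**
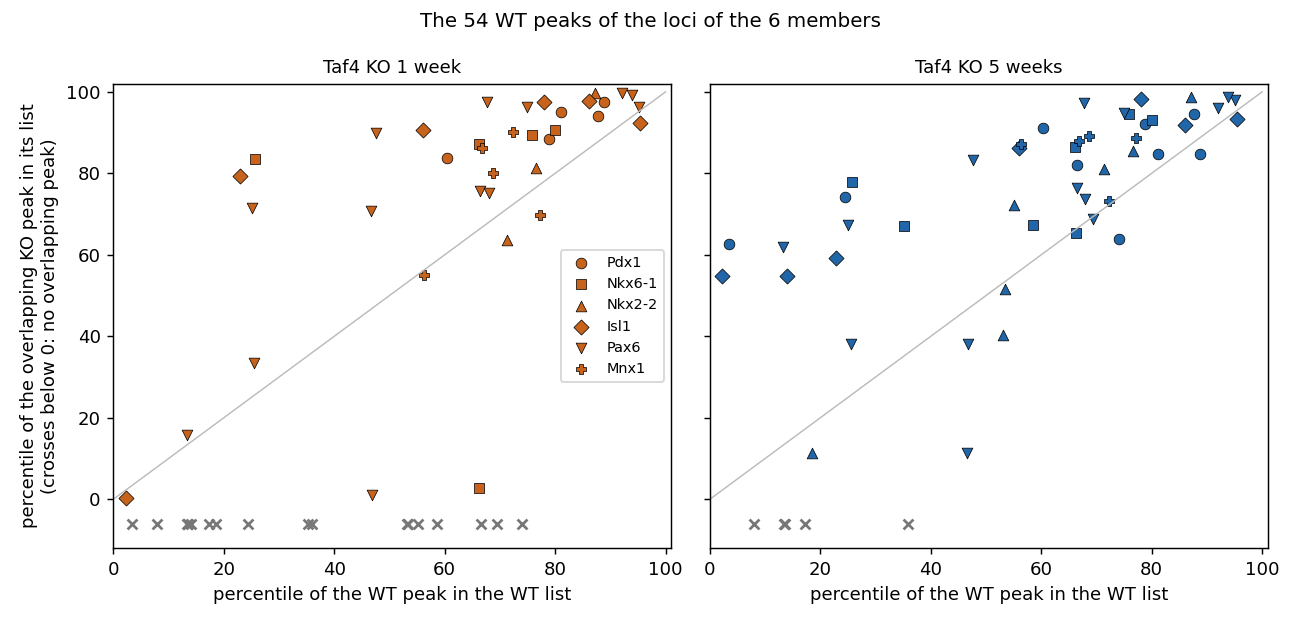
Percentile of -log10 q of each WT locus peak within the WT list (horizontal axis) and of its overlapping KO peak within the KO list (vertical axis), with 1 panel per time. Of the 37 shared peaks 30 lie above the line of equality at 1 week and of the 49 shared peaks 39 do at 5 weeks.

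Shared peaks mostly stood at a higher percentile in the longer KO lists, as shared WT peaks did across the genome, and at 5 weeks the direction turned when the lists were cut to equal number (median -1.52 points) or scaled to the WT background (-3.55). The order against all shared WT peaks at 1 week also turned: the locus median was 2.35 against 0.778 with lists of equal number, 3.37 against 1.34 after scaling, 10.1 against 5.29 when -log10 q had to reach 3 and 9.53 against 1.28 when it had to reach 5. At 5 weeks this order turned under some settings and not under others. The locus median was the higher one after scaling (-3.55 against -4.84), when -log10 q had to reach 5 and with ranks by fold. It was the lower one with lists of equal number (-1.52 against -1.16) and when -log10 q had to reach 3. The same held with a reciprocal overlap of 50%. With the full lists 30 shared peaks stood higher at 1 week and 7 lower (range -63.4 to 57.8). The median difference was 10.7 points, against 15.8 over all shared WT peaks. At 5 weeks it was 12.6 points (range -35.2 to 59.3, 39 higher and 10 lower), against 18.3. At least 20 points higher were 10 of 37 at 1 week, against 42.9% of all shared WT peaks, and 18 of 49 at 5 weeks, against 47.0%. At least 20 points lower were 2 of 37 and 1 of 49, against 4.18% and 1.06%. Among distal peaks alone the medians were 11.3 and 15.4 points, against 22.3 and 23.3, with 10 of 29 and 18 of 41 at least 20 points higher, against 53.9% and 56.4%, and 1 of 29 and 1 of 41 at least 20 points lower, against 2.94% and 1.34%. Among the 8 shared promoter peaks 0 stood at least 20 points higher at either time, against 16.4% and 20%, and 1 at 1 week and 0 at 5 weeks stood that far lower, against 7.17% and 0.238%. The 1 was the last Pax6 stretch, described above. The median WT percentile was 66.2 for the locus peaks, and the difference depended on it. Within the strongest of the 4 bins of WT percentile the median difference was 8.70 points at 1 week, against 2.53 over all shared WT peaks of that bin, and 6.86 at 5 weeks, against 4.23. Within the next bin it was 17.9 against 21.2 at 1 week and 12.6 against 19.5 at 5 weeks.

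Matched peaks were narrower at 1 week and wider at 5 weeks. At 1 week 27 of 37 were narrower than their WT peak and 10 wider, with a median length of 646 bp against 897 bp, while 46.4% of all shared WT peaks were wider. At 5 weeks 37 of 49 were wider and 12 narrower, with a median of 950 bp against 672 bp, while 66.4% of all were wider. Long 5 week peaks at Pdx1 (4292 bp), Isl1 (1860 bp) and Pax6 (2879 bp) each matched a pair of WT peaks. Each of these was counted once for either WT peak. The fold was lower in 19 and higher in 18 at 1 week, against 69.0% lower among all shared WT peaks, and lower in 29 and higher in 20 at 5 weeks, against 66.2% lower. Altogether the loci were covered by peaks over 47021 bp in WT, 32722 bp at 1 week and 65304 bp at 5 weeks, or 0.70 and 1.39 times the WT length. The whole lists covered 2.52 and 2.67 times the WT length.

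Of 20 other transcription factor genes of pancreatic endocrine cells, the WT list called the promoters of 18, the 1 week list 15 and the 5 week list 18, with 15 in all of them. Foxa1, a forkhead factor of the foregut, was called only in WT, at a -log10 q of 1.37. Myt1 and Sox9, a zinc finger factor of endocrine precursors and a factor of duct and progenitor cells, were called in WT and at 5 weeks. Onecut1, a factor of the early pancreas and duct, was called only at 5 weeks, at 2.67, and Pax4 in none. The 5 beta cell homeodomain genes called in all lists were compared with the 15 by the distance between their 3 promoter percentiles. Nkx6-1 was nearest to Rfx6, at 1.43 points, Mnx1 to Gata6, at 8.44, Pdx1 to Hnf4a, at 10.6, Pax6 to St18, at 10.6, and Isl1 to St18, at 11.8.

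Of 15 homeodomain genes of other tissues, the lists called 6, 3 and 7 promoters, and only those of Nkx6-2 and Lhx2 in all 3. Nkx2-5 and Pax3 were called only in WT, Pitx1 in WT and at 5 weeks, Pax2 and Pax7 only at 5 weeks, and Otx2 in both KO lists. Their loci held 64, 73 and 145 peaks, with a median per gene of 3, 3 and 9, against 7, 6 and 12 for the 6 beta cell genes. The loci of the 20 endocrine factors held 185, 161 and 252, so that their sum, like that of the 6 beta cell genes, was lower at 1 week than in WT, while that of the 15 homeodomain genes of other tissues was higher.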

How the data were processed

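ATAC-seq was performed on dissociated islet cells, with 1 library per group. Groups came from the genotype and time labels. The authors mapped reads to mm9 with Bowtie, keeping uniquely placed reads, and called broad peaks in each library on its own with MACS2. The submitters' processing notes name bcl2fastq 2.17.1.14, Bowtie 1.0.0 and MACS2 2.1.1. No control library, duplicate removal or insertion-site shift was given in the sources used here. The deposited lists hold each peak's fold over the local background (a ratio), its -log10 p and its -log10 q, each a mean over the peak made by the authors' caller. Read totals were not used here, so depth was taken from the background that fold and p imply, at the 1st percentile of each list.

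Peaks on chromosomes 1 to 19, X and Y were used, and 2 mitochondrial peaks of each list were set aside. Gene bodies and starts came from the GENCODE annotation of NCBIM37, the same build as mm9. Distances run from the gene's first protein-coding start to the peak midpoint and are negative upstream. A WT peak was paired with the KO peak that overlapped it over most bases, from 1 bp. GC content was taken over the 1 Mb around a peak, in 5 bins of equal numbers of WT peaks. Percentiles are average ranks of -log10 q within a list. Intervals are Wilson 95% intervals and cover counting only.

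The 6 genes, the marker and comparison lists and the alternatives were chosen with earlier results of these data known. Named for each gene were its promoter peaks, its 3 strongest distal WT peaks, the strongest region of both KO lists without WT and the strongest WT peak without KO overlap. Named in addition were a neighbour whose promoter held a peak, listed genes whose call differed between lists, and the nearest listed gene. The call of 1 listed gene is not reported here. Other peaks named in the text, the motif TAAT and the use of every transcript start were chosen after the values had been seen. The overlap and the recovery of the background were tested on simulated data. Each simulated peak had a single fold and p, whereas the deposited values are means over a peak. How well the background is recovered from such means was therefore not tested. Python 3.11.15 with numpy 2.4.6, pandas 2.3.3, scipy 1.17.1 and matplotlib 3.10.9 was used. The alternatives were other minimum -log10 q values, lists of equal number, scaling to the WT background, other promoter windows and flanks, a reciprocal overlap and ranks by fold.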

Additional observations from a re-analysis of the deposited data

Results flagged for a closer look

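At 4 counts the library made 1 week after Taf4 inactivation lay below WT and the library made 5 weeks after it lay above WT. The difference between the times was not tested, since each was 1 library. The 6 loci together held 54 peaks in the WT library, 43 in the earlier and 69 in the later, and these covered 47021, 32722 and 65304 bp. Pdx1 had 10, 5 and 15 peaks. Nkx2-2 had 7, 4 and 14. Of all 12531 gene loci with at least 5 WT peaks, 75.8% also had fewer peaks at 1 week. At 5 weeks 56.1% of them had more. How far the higher 5 week counts held under other settings is described above.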

How the results depend on the processing

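No paired analysis was possible because each group had 1 library, and for the same reason no replicate could be left out. Of the values recomputed under an alternative, 50 stayed close to those reported, 10 moved further and 2 turned in sign. When -log10 q had to reach 5, the loci held 28, 21 and 36 peaks in WT, at 1 week and at 5 weeks. Scaled to the WT background, the 5 week count was 44, below the 54 of WT, and with lists of equal number it was 50. The 1 week count was below that of WT under every alternative tried. With a reciprocal overlap of 50%, 44.4% of WT locus peaks were shared at 1 week and 66.7% at 5 weeks, against 44.9% and 61.2% of all WT peaks. At 5 weeks 74.1% were shared for equal lists and 66.7% once scaled, against 69.6% and 65.4% of all WT peaks. The median percentile difference was 2.35 at 1 week for equal lists and 3.37 once scaled, against 0.778 and 1.34 over all shared WT peaks. At 5 weeks it was -1.52 and -3.55, against -1.16 and -4.84 over all shared WT peaks, so the direction given in the report depends on list length and depth. The Nkx2-2 promoter was called at 5 weeks and in no other list under each stricter setting. Without replicates the spread between animals is unknown, and peaks near the calling threshold depend on depth.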

Other observations

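Several strong peaks lay just beyond the 50 kb limit and were not counted in the loci. Beyond Pax6 a peak 52.2 kb from the gene in WT had a -log10 q of 10.4. Its counterparts had 8.51 at 1 week and 21.0 at 5 weeks, and the percentiles were 81.3, 92.6 and 96.5. Beyond Nkx6-1 a peak 54.1 kb away in WT had a -log10 q of 9.98, with 8.44 at 1 week and 18.9 at 5 weeks. The percentiles there were 80.3, 92.5 and 95.2. Beyond Nkx2-2 a peak 53.0 kb away in WT had a -log10 q of 10.1 (percentile 80.7). One 52.9 kb away at 1 week had 6.03 (percentile 87.4). At 5 weeks the nearest peak outside the limit was 50.5 kb away and weak, with 1.74 (percentile 31.2). The weakest peak just inside the limit was that of Mnx1, 47.6 kb from the gene in WT with 1.68, and the nearest peak outside it, 51.3 kb away, had 1.93. Around Isl1 the nearest WT peak outside the limit was 196 kb from the gene.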
